A study of Mus musculus with 2 samples.

Results

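The intergenic H3R17me2a peaks that lay 10 to 100 kb from a protein-coding gene numbered 1407 of 20226 peaks, or 6.96% (95% exact binomial interval 6.61 to 7.32%). The 20226 were the peaks of the first deposited list on chromosomes 1 to 19 that were under 2000 bp wide and overlapped a peak of the other list by at least 1 bp. A member of the set was such a peak whose midpoint fell in no annotated gene of any type and lay 10000 to 100000 bp from the nearest coding gene in the mouse build mm10. The rule used position, width and overlap, so none of these is a finding. The peaks came from chromatin immunoprecipitation and sequencing of wild-type mouse heart at P21, the 21st day after birth, in a study of the arginine methyltransferase Carm1 in cardiac maturation. Both samples belonged to this single group, each with 1 peak list (list 1 and list 2), and no mutant, input or other age was analysed here. Separate animals are not stated in the labels. The source label named cardiac fibroblasts, the tissue label named heart, and the series design called the hearts neonatal.

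Enhancers are regulatory stretches of DNA that can sit far from the genes they act on, in introns or between genes. Carm1, also called Prmt4, is recruited by nuclear receptors and other transcription factors as a coactivator and places asymmetric dimethyl groups on arginine 17 of histone H3, a mark linked to active transcription. Heart muscle after birth switches its fuel use and contractile isoforms, and many of the genes involved are known to have distal enhancers. A peak between genes does not by itself show which gene, if any, it acts on, so the nearest coding gene on each side is given as position only.

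No genome sequence was used here, so the letters under most peaks are not shown. The exception was the starts of non-coding RNA genes, for which 300 bp windows (250 bases before and 50 after the annotated start) were at hand from RefSeq, build GRCm38.p6, whose chromosomes have the coordinates of mm10. In all, 47 members overlapped 48 such windows of 47 genes, all of them long non-coding RNAs. The 5 windows printed show the contrast in CG content described below, 5′ to 3′ on the strand of the gene, with every CG dinucleotide in capitals. Gm28867 lies at chr1:118359072-118359371 on the plus strand between Nifk and Clasp1, Gm32027 at chr19:36264144-36264443 on the minus strand between Ankrd1 and Pcgf5, and Lncppara at chr15:85703523-85703822 on the plus strand between Wnt7b and Ppara. Chaserr lies at chr7:73558346-73558645 on the minus strand between Chd2 and Fam174b, and Snhg5 at chr9:88522848-88523147 on the minus strand between Syncrip and Zfp949. The list 1 peak covered all 300 bases of each window except that of Lncppara, where it covered 53.
Gm28867: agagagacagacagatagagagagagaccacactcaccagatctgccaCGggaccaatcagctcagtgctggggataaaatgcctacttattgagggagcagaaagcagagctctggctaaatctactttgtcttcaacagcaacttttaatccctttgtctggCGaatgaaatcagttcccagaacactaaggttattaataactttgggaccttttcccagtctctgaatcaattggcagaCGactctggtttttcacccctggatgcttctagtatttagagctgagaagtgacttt
Gm32027: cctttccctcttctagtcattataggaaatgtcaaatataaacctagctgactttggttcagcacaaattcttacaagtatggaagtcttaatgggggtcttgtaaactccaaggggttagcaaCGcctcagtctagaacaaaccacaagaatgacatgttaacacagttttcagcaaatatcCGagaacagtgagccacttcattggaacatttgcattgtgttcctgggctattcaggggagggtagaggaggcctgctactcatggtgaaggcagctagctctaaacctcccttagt
Lncppara: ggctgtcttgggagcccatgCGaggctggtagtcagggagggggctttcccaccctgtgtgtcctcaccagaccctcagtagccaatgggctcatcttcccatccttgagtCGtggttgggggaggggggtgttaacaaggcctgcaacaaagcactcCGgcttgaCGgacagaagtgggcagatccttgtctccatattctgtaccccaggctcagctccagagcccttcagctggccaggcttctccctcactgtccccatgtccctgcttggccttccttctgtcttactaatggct
Chaserr: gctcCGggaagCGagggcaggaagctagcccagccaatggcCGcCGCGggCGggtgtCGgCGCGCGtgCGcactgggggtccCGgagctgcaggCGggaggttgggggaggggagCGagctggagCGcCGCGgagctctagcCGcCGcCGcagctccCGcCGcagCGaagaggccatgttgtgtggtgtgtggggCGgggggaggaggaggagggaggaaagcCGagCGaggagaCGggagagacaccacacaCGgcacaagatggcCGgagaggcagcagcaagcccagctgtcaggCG
Snhg5: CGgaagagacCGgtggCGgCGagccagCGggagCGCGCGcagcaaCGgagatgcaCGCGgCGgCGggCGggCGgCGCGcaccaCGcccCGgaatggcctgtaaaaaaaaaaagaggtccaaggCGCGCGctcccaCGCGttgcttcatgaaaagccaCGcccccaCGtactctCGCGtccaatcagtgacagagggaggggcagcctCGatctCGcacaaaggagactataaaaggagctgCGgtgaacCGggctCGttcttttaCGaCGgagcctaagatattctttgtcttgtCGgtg

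CG dinucleotides numbered 3 in the Gm28867 window, 2 at Gm32027 and 4 at Lncppara, against 30 at Chaserr and 36 at Snhg5. The CG-poor Gm28867 peak had 42 reads and 16.3-fold enrichment over background at its summit in list 1, the highest list 1 fold of the 48 windows, and 41 reads and 9.98-fold in list 2. Snhg5, a host gene of small nucleolar RNAs, had 294 reads and 1.97-fold in list 1 and 304 reads and 3.57-fold in list 2. The peak at Chaserr, a non-coding RNA that in mouse restrains its neighbour Chd2, had 240 reads at 2.77-fold and 243 at 4.09-fold. Both CG-rich starts thus carried many reads at a low fold. Over the 48 windows, the 13 with at least 15 CG dinucleotides had a median of 100 reads at the list 1 summit, and the other 35 had a median of 24. Median fold ran the other way, 3.13 against 5.47 in list 1 and 3.78 against 4.33 in list 2. The ranges overlapped: list 1 fold ran from 1.97 to 9.37 in the 13 and from 2.89 to 16.3 in the 35. List 1 reads ran from 17 to 294 and from 9 to 257. Across windows, Spearman's rho of the CG count was 0.56 with reads and -0.48 with fold in list 1, and 0.52 and -0.11 in list 2. The list 1 summit lay inside the window in only 26 of the 48, 10 of the 13 CG-rich and 16 of the other 35. It lay inside at Chaserr and Snhg5 and outside at Gm28867, Gm32027 and Lncppara. Where it lay outside, reads and fold belong to DNA beside the letters counted. These are descriptions over 48 windows of 1 sample, and reads and fold come from the same summits. Only peaks above a least −log10 p were listed, which asks for a higher fold where reads and background are low. Its part in the order of fold by CG count was not tested.

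A start window with at least 15 CG dinucleotides was found in 27.1% of the 48, in 35.2% of all 31396 start windows on chromosomes 1 to 19, and in 12.3% of the 11311 windows of long non-coding RNAs. Of the 13 motifs searched on both strands, the GC box (GGGCGG) occurred in 14 of 48 windows (29.2%), against 36.0% of all windows and 16.3% of the long non-coding ones. The MEF2 motif, bound by a family of muscle transcription factors, occurred in 4 (8.33%), against 3.10% and 3.94%. The TEAD motif (GGAATG) occurred in 10 (20.8%, against 14.6% and 16.7%) and the ETS motif (CCGGAAG) in 5 (10.4%, against 9.0% and 3.91%). The AP-1 (TGANTCA) motif occurred in 4, the E-box (CAGCTG) in 8, that of GATA factors, written AGATAA, in 3, NKX2-5 (AAGTG) in 20, TBX (AGGTGTG) in 2 and the CArG box in 1. Their shares were 8.33%, 16.7%, 6.25%, 41.7%, 4.17% and 2.08%, beside 7.84%, 16.3%, 11.2%, 46.2%, 5.86% and 1.57% of all windows. The ERR (TCAAGGTCA), CTCF and paired NFI motifs had no match in the 48. A match describes the letters only, and the ETS motif and the GC box each contain a CG dinucleotide.

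Within 5000 bp of a member lay 12 microRNA hairpins, and 8 mature sequences are printed, the better known arm of each of the 8 that lie in clusters, with the seed (bases 2 to 8) in capitals, from RefSeq GRCm38.p6. MicroRNAs pair through the seed with messenger RNAs and repress them.
mmu-let-7b-5p: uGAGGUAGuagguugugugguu
mmu-let-7c-5p: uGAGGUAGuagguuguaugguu
mmu-miR-17-5p: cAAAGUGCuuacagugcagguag
mmu-miR-20a-5p: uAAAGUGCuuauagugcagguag
mmu-miR-18a-5p: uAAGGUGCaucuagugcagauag
mmu-miR-19a-3p: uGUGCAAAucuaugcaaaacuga
mmu-miR-19b-3p: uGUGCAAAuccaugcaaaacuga
mmu-miR-92a-3p: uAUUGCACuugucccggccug

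The let-7b and let-7c sequences share the seed GAGGUAG. Their hairpins lay 3744 and 3028 bp from the member that overlaps the Lncppara start, which had 5.0-fold enrichment and 29 reads in list 1 and 3.16-fold and 29 reads in list 2. miR-17 and miR-20a share the seed AAAGUGC, miR-19a and miR-19b share GUGCAAA, and all 6 hairpins of that cluster lay between Slitrk5 and Gpc5 on chromosome 14. The nearest member ended 1157 bp before the Mir17 hairpin and had 4.07-fold enrichment in list 1 and 2.79-fold in list 2. The other 4 hairpins were Mir7688 between Elk3 and Lta4h, Mir6516 between Mgat5b and Sec14l1, Mir193b between Mrtfb and Parn, and Mir7-2 between Det1 and Aen, at 215, 273, 1865 and 4523 bp. Fold at those 4 ranged from 3.40 to 7.35 in list 1 and from 3.59 to 8.17 in list 2.

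The lists were 2 peak calls that lay close to each other at the members. The summit fell on the same base in 625 members (44.4%) and within 100 bp in 1233 (87.6%). ChIP reads at each summit, recovered from the deposited fold and p-value, differed between lists by a median of 1, and in 77.3% of members by at most 2. The median was 20 reads in list 1 (lowest 8, highest 340) and 22 in list 2 (lowest 7, highest 503), for the 1399 and 1400 members where reads could be recovered. Because the lists lay this close at most members, the samples were counted as 1, no value has a replicate error, and no test over samples was run. Whether the lists rest on the same reads was not tested. Values are given for both lists so that their differences can be seen, and the source of those differences was not tested. The lists had 21497 and 38012 peaks in all, their total read depth is unknown, and exact intervals below cover counting error only.

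The heart label was checked on gene-end peaks, where a peak of each list overlapped the 1000 bp on either side of an end of the gene. Such peaks were found at 40.1% of the 20661 coding genes on chromosomes 1 to 19, and at 9 of 10 cardiomyocyte markers, the exception being Ryr2. They were found at 0 of 10 fibroblast markers (Col1a1, Pdgfra, Tcf21 and Postn among them), which at these 10 genes allows a share of up to 30%, at 1 of 10 endothelial markers (Esam), 1 of 10 immune markers (Cd68) and 2 of 10 mural markers (Abcc9 and Acta2). The marker genes thus went with heart muscle and against the fibroblast source label. In bulk tissue, fewer cells of a type and less signal per cell cannot be told apart.

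Members had a higher fold on fewer reads than peaks at gene ends. Their median fold was 5.97 in list 1 (95% order-statistic interval 5.73 to 6.0) and 4.89 in list 2 (4.73 to 5.04). At the ends of coding genes the 7409 peaks had medians of 4.0 and 3.68, and inside coding genes the 8986 peaks had 5.38 and 4.27. The 1049 intergenic peaks under 10 kb from a coding gene had 5.47 and 4.52, and the 404 beyond 100 kb had 6.23 and 5.36. Across the 3 intergenic classes the median was higher with greater distance in both lists. Reads at the list 1 summit had a median of 20 in members and 50 at gene ends, and the recovered local background had a median of 2.00 in members and 11.0 at gene ends. A list 1 fold of at least 10 was reached by 169 members (12%), by 2.54% of the gene-end peaks, by 6.79% inside coding genes, by 10.1% at other annotated genes and by 12.6% beyond 100 kb. Low reads and background were shared by the classes away from gene ends: median reads were 19 inside coding genes and 20 in each of the other intergenic classes. Each list held only peaks above a least −log10 p, and where background is low a peak needs a higher fold to reach it. The order of fold between classes, including that by distance, may thus be set in part by the peak call. How far it is so was not tested. These are peaks of 1 sample, and no test of the differences was run.

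Among themselves the members ranged from 1.49 to 44.1-fold in list 1 and from 1.52 to 32.7-fold in list 2. Spearman's rho of fold between the lists was 0.62 over the 1407 members. Fold differed between the lists by more than 2-fold in 95 members (6.75%), and 70 members reached 10-fold in both lists. List 1 gave the higher fold in most, with a median log2 ratio of 0.36. Widths in list 1 ran from 181 to 1996 bp with a median of 438 bp. The weaker calls came from list 2, where 321 members (22.8%) had a −log10 p under 5 and 156 (11.1%) a q above 0.05. Because list 2 peaks were wider, 107 members shared their list 2 peak with another member, and the 1407 rested on 1352 distinct list 2 peaks.

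**Figure D1:**
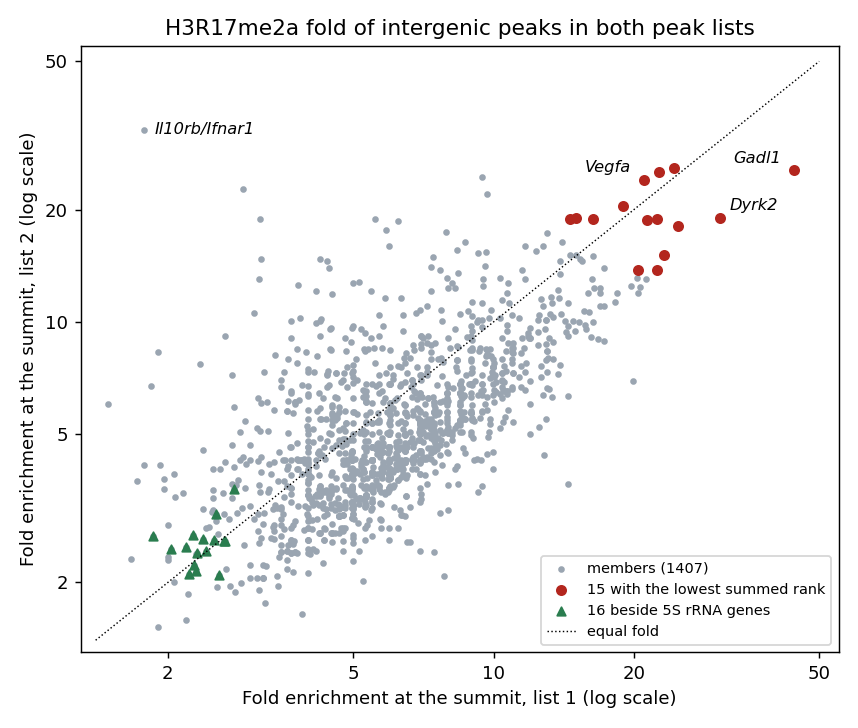
Fold enrichment over background of each of the 1407 members in list 1 (x axis) and list 2 (y axis), both on log scales, with the 15 strongest in red and the 16 beside 5S rRNA genes as green triangles. Most points lie below the dotted line of equal fold, and the strongest 15 lie at 13.8-fold or more in list 2.

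The strongest members were the 15 with the lowest summed rank of fold, given with the nearest coding gene on each side. The strongest lay at chr9:115867381-115867938, 17011 bp from the 5′ end of Gadl1, a decarboxylase of beta-alanine metabolism, and 557192 bp from Stt3b, a catalytic subunit of the oligosaccharyltransferase. It had 44.1-fold enrichment and 99 reads in list 1 and 25.5-fold and 99 reads in list 2. Gadl1 had no gene-end peak and Stt3b had one. A peak at chr17:46003910-46004801 lay 12637 bp from the 3′ end of Vegfa, the main vascular endothelial growth factor, and 270250 bp from 1600014C23Rik on the other side. Its values were 21-fold and 62 reads in list 1 and 24.1-fold and 64 reads in list 2, and both genes were marked by gene-end peaks. Vegfa also had a weaker member 91113 bp away, at 6.95 and 4.83-fold.

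Other strong members had these neighbours. A peak at chr17:4974669-4975180 lay 19372 bp from Arid1b, a subunit of the SWI/SNF remodelling complex, and 1278664 bp from Nox3, at 22.7-fold in list 1 and 25.2-fold in list 2. Another at chr10:118799383-118800318 lay between Ifng, 353957 bp away, and the kinase gene Dyrk2, 55751 bp away, at 30.7 and 19-fold. The peak between Kitl, the ligand of the Kit receptor, and Gm4301 had 22.4 and 18.9-fold at 97355 bp from Kitl. Between Egln3, a prolyl hydroxylase of the hypoxia-inducible factors, and Sptssa, the values were 21.3 and 18.7-fold at 83436 bp from Egln3. The member between the zinc finger gene Zfp536 and Uri1 had 24.4 and 25.9-fold at 63728 bp from Zfp536.

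A further 7 ranged from 15 to 24.9-fold in list 1 and from 13.8 to 20.4-fold in list 2. They lay between 4930596D02Rik and 4930474N05Rik, the tight-junction genes Cldn4 and Cldn3, Hrh4 and Zfp521, Jade2 and Cdkn2aipnl, Pirt and Tmem220, Eif4g2 and Galnt18, and Fam126a and Klhl7. Over the 15, the nearest gene was 12299 to 97355 bp away and had a gene-end peak in 7. At least 1 flanking gene had one in 11. Over all 1407 members the nearest gene had one for 62.3%, and neither flanking gene had one for 19%. In all 15 the summits of the lists lay within 100 bp. Members strong in list 2 alone were not among them, and the one with the highest list 2 fold was such a case: between Il10rb and Ifnar1, genes of interleukin-10 and interferon receptors, fold was 1.78 with 70 reads in list 1 and 32.7 with 210 reads in list 2.

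Density of shared peaks fell with distance from coding genes. Intergenic DNA within 1000 bp of a coding gene held 51.8 peaks per Mb (95% interval 49.2 to 54.4), and that from 1 to 2 kb held 7.94. The members made 4.23 per Mb at 10 to 20 kb (3.86 to 4.63), 3.34 at 20 to 50 kb (3.08 to 3.62) and 2.31 at 50 to 100 kb (2.07 to 2.56). Beyond 100 kb it was 0.678. Within the range of the members density thus fell by a little under 2-fold, while median list 1 fold was 5.87, 5.97 and 5.97 in the 3 bins. Over all eligible DNA, 438.0 Mb, the members made 3.21 per Mb, and by chromosome from 2.15 (chromosome 5) to 5.26 (chromosome 15). Median distance to the nearest coding gene was 28994 bp and to the farther one 90347.5 bp. In 652 members (46.3%) the farther gene lay beyond 100 kb, and 3 members had no coding gene on 1 side.

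**Figure D2:**
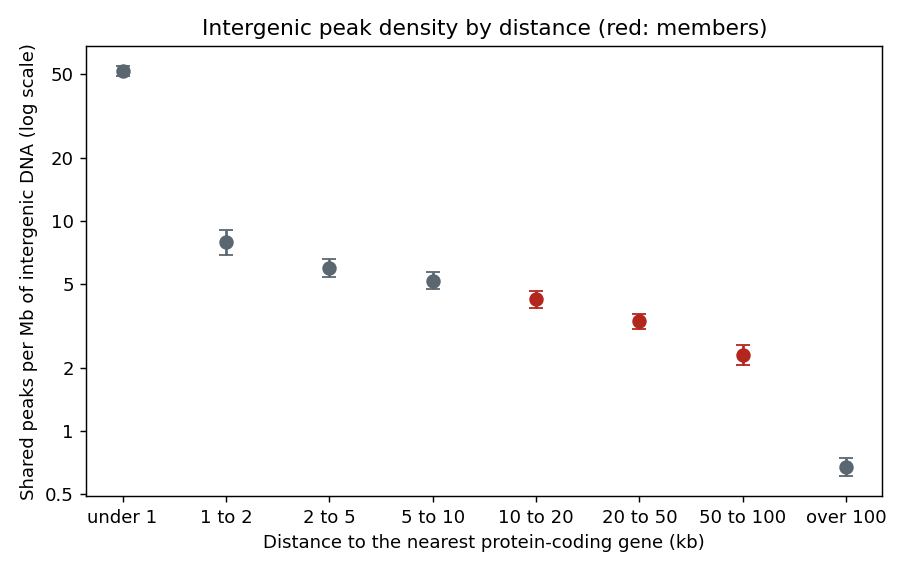
Shared peaks per Mb of intergenic DNA (log scale) by distance to the nearest protein-coding gene in kb, with 95% exact intervals, and the 3 bins that hold the members in red. Density falls at each step from 51.8 to 0.678 per Mb.

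Coding genes beside the members were marked at their ends more often than coding genes at large. Beside the 40.1% of all coding genes, they were found at 34% of the 11630 that stand beside a gap that could hold a member. The nearest coding gene had one for 877 members (62.3%, 59.7 to 64.9%). Counted once per gene, 513 of the 887 nearest genes (57.8%, 54.5 to 61.1%) and 836 of the 1544 flanking genes (54.1%, 51.6 to 56.7%) were marked. Both flanking genes had one for 480 members (34.1%), 1 of them for 660 (46.9%) and neither for 267 (19%). The share for the nearest gene was 63.4% at 10 to 20 kb, 60.3% at 20 to 50 kb and 64.3% at 50 to 100 kb. Nearest genes were marked for 71.1% of the intergenic peaks under 10 kb away and for 54.5% of those beyond 100 kb. With members split by summed rank into 4 equal groups, the share ran from 59.1 to 65.3% with no order by strength. The size of these shares rested on the peaks admitted: with only the upper 50% of each list by fold, the nearest gene was marked for 18% of members and 12.6% of all coding genes were marked.

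Seen from the gaps between neighbouring coding genes, 807 of the 8060 that could hold a member did (10.01%). Such a gap is the stretch between 2 coding genes that has at least 1 base outside all genes at the required distance. Gaps with no flanking gene marked held a member in 4.49% (182 of 4054), those with 1 in 12.9% (373 of 2887) and those with both in 22.5% (252 of 1119). Because gaps differ in length, members were also counted per Mb of eligible DNA: 1.25 with no flank marked (1.11 to 1.42), 3.84 with 1 (3.55 to 4.14) and 8.63 with both (7.88 to 9.44). The order held in each of 4 bins of eligible length. The intervals per Mb count each member as independent, although many members shared a gap. They are thus too narrow, and their overlap was not read as a test. Gene density, open chromatin and read mappability also vary between gaps, and their part in this was not tested.

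**Figure D3:**
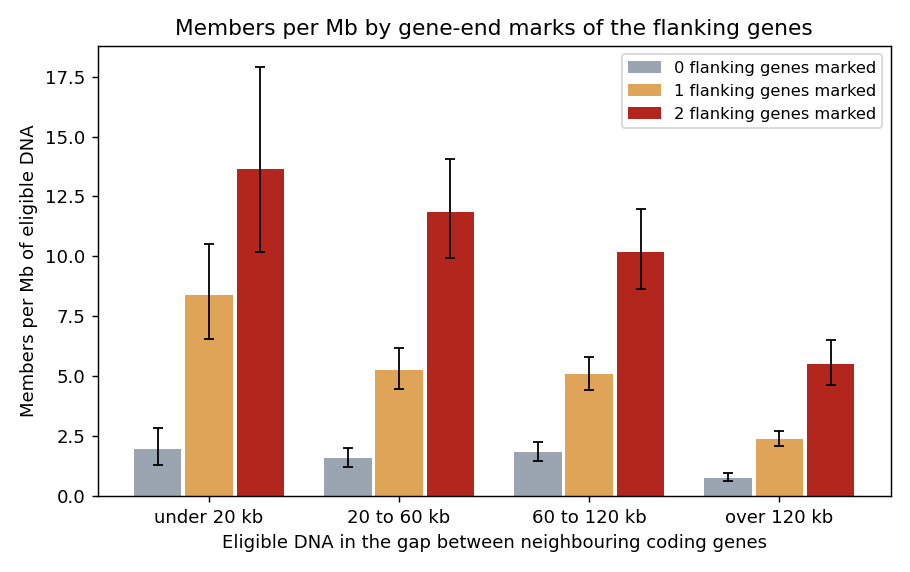
Members per Mb of eligible DNA (y axis) in gaps between neighbouring coding genes, grouped by the eligible DNA in the gap (x axis) and coloured by how many of the 2 flanking genes were marked at an end, with 95% exact intervals. In the longest gaps the values are 0.779, 2.38 and 5.53 per Mb for 0, 1 and 2 marked genes.

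Members gathered in some gaps. Only 519 of the 807 gaps held a single member, while 288 held 2 or more and together 885 members (62.9%), and 38 held 5 or more and together 266. Coding genes nearest to 5 or more members were marked in 24 of 30 (80%, 61.4 to 92.3%), against 328 of 615 (53.3%, 49.3 to 57.3%) of those nearest to 1. Peaks in crowded gaps did not have a higher median fold. In list 1 it was 6.10 in gaps with 1 member and 5.57 in those with 5 or more, and in list 2 5.03 and 4.68. The 266 include the 16 low-fold peaks beside 5S ribosomal RNA genes described next, and medians without those were not computed. Counting genes by number of members also counts eligible length, since long gaps have more room.

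The gap with the most members, 16, lay between Gas8, a gene of the ciliary dynein regulatory complex, and the GTPase gene Rhou on chromosome 8. All 16 lay within 1000 bp of 5S ribosomal RNA genes, had low fold (1.86 to 2.77 in list 1 and 2.09 to 3.55 in list 2) and many reads (118 to 179 and 196 to 244). The recovered list 1 background was 42.0 to 86.0 there, beside a median of 2.00 over all members. Neither Gas8 nor Rhou had a gene-end peak. The 5S genes are near-identical copies, so reads may be split among them in a way the lists do not show, and the values of these 16 are uncertain.

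Next came Slc38a2 and Slc38a4 on chromosome 15, which encode amino acid transporters, with 14 members in 295087 bp. Slc38a2, marked at its end, was the nearest gene for 11 of them, at 10081 to 94553 bp. Their fold was 3.60 to 11.0 in list 1 and 2.43 to 8.76 in list 2. The peak 10081 bp from Slc38a2 had the most reads, 190 in list 1 and 191 in list 2, at 4.07 and 3.84-fold. The highest fold, 11.0 and 8.76, fell 44602 bp from Slc38a2 on 30 reads in each list. The other 3 members lay 79214 to 82662 bp from Slc38a4, which had no gene-end peak. The middle of this gap is more than 100000 bp from both genes and could hold no member. The separation of the 3 from the 11 is thus in part set by the rule.

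The gap between Wnt7b and Ppara on chromosome 15 also held 14. Ppara encodes the nuclear receptor that drives fatty acid oxidation genes in heart and liver. It was marked at its end and was the nearest gene for 10 members, 16047 to 64770 bp away, whereas Wnt7b, a WNT ligand gene, was not marked. The strongest, at chr15:85716958-85717679, lay 17591 bp from Ppara and had 11.5-fold on 23 reads in list 1 and 9.03-fold on 23 reads in list 2. Another 56860 bp from Ppara had 7.78 and 7.79-fold on 69 and 74 reads. The weakest, 64770 bp from Ppara, had 2.21 and 1.86-fold on 41 and 36 reads. The Lncppara start and both let-7 genes printed above lie in this gap.

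The gaps with the next highest counts were on chromosomes 8 and 6. Disc1 and Sipa1l2 on chromosome 8, neither marked, had 10 members between them at 1.93 to 11.0-fold in list 1 and 3.41 to 9.45-fold in list 2. Dysf, which encodes dysferlin, a membrane repair protein of muscle, and Cyp26b1, a retinoic acid hydroxylase, had 9. All 9 lay on the Dysf side, 14429 to 94117 bp from it, and the gap of 360353 bp had no member nearer to Cyp26b1. Their strongest, 32365 bp from Dysf, had 13.9 and 13.5-fold on 38 reads in each list. Dysf was marked at its end and Cyp26b1 was not.

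**Figure D4:**
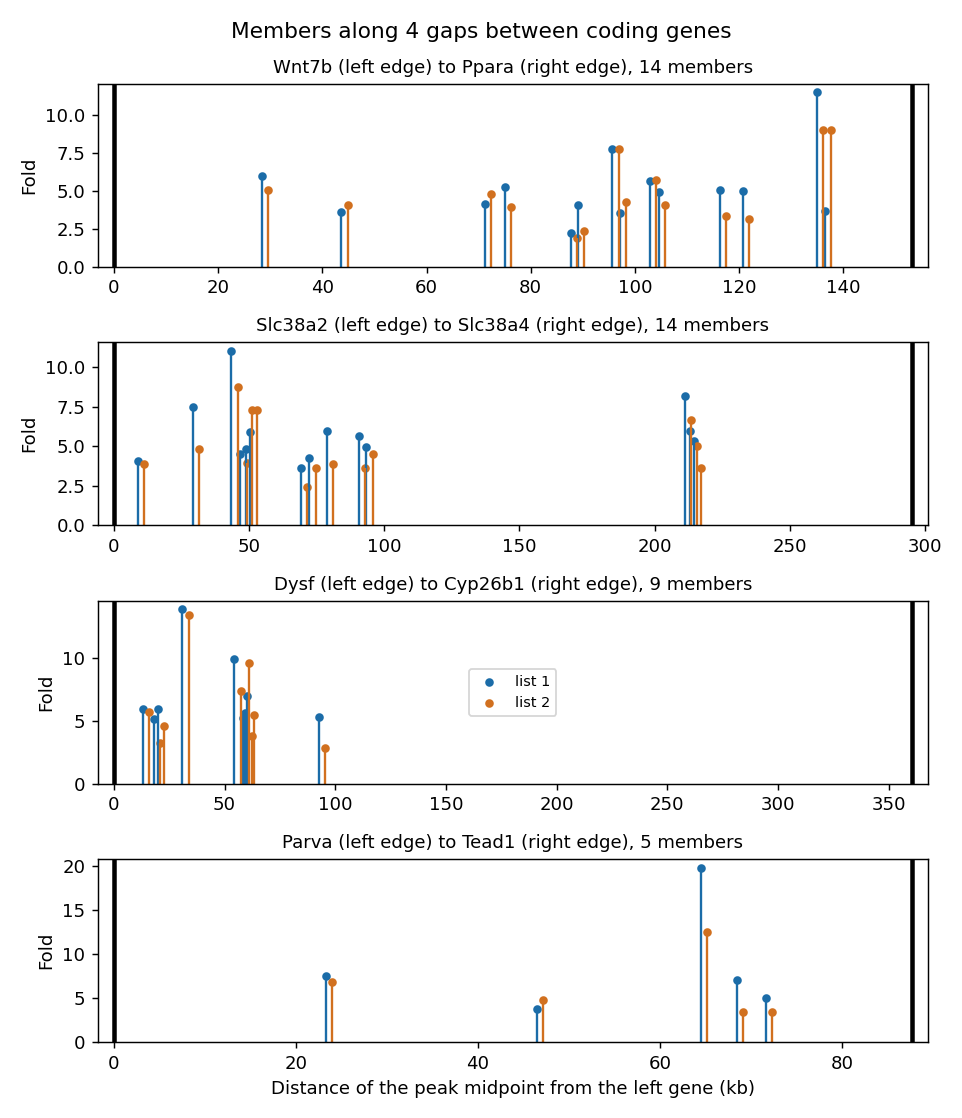
Fold enrichment (y axis) of each member in list 1 (blue) and list 2 (orange) along 4 gaps, by distance from the left gene in kb (x axis), with the flanking coding genes as black lines at the edges and the lists drawn slightly apart. Members of the Ppara, Dysf and Tead1 gaps lie mostly nearer to those genes, up to 11.5, 13.9 and 19.8-fold in list 1.

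Other genes that were the nearest one for many members were Qk (8), an RNA-binding regulator of splicing, S1pr1 (7), a sphingosine-1-phosphate receptor, Phlda1 (7), the chromatin remodeller gene Chd2 (7) and Adrb1 (6), the main beta-adrenergic receptor of heart muscle. All of these were marked at an end. Around Adrb1 the 6 lay on both sides, 3 of them 11420 to 17016 bp away toward Ccdc186 and 3 of them 41960 to 45668 bp away toward Nhlrc2. The strongest of them had 14.4-fold on 28 reads in list 1 and 6.31-fold on 29 reads in list 2, 41960 bp from Adrb1.

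In all, 1544 coding genes flanked a member, which was 7.47% of all coding genes and 13.3% of those beside a gap that could hold one. With list 2 alone, without the list 1 replicate, there were 3395 members, 7.75 per Mb, and 15.3% of all coding genes flanked one. The shares of the 25 gene lists are given over list genes beside such a gap. The number of members per Mb in the gaps those genes bound is given with each list as well, since it allows for gap length. Stress and circadian genes flanked a member in 14 of 27 (51.9%, 31.9 to 71.3%), sarcomere genes in 9 of 19 (47.4%, 24.4 to 71.1%), cardiac transcription factors in 14 of 30 (46.7%, 28.3 to 65.7%) and metabolic regulators in 12 of 26 (46.2%, 26.6 to 66.6%). Of those 14, 9, 14 and 12 flanking genes, 7, 5, 8 and 8 were the nearest coding gene of a member. The gaps beside the genes of these lists held 12.8, 10.6, 6.94 and 12.1 members per Mb, against 3.21 over all eligible DNA. Without the single gap with the most members in each list, these 4 values were 9.82, 8.86, 5.59 and 8.12. Many genes of these lists were also marked at their ends (37 of 41, 28 of 32, 23 of 32 and 25 of 31), and the part of this in the counts was not tested.

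Of the cardiac transcription factors, Tead1, which binds muscle gene promoters, had 5 members on its Parva side. The strongest, at chr7:112655990-112657104, lay 22809 bp from Tead1 and had 19.8-fold on 78 reads in list 1 and 12.5-fold on 79 reads in list 2. Hopx, a homeodomain cofactor, had a member at 10.4 and 11.4-fold 15587 bp away, and Irx4, a ventricle-restricted factor, one at 7.34 and 8.67-fold 20689 bp away. The others in this list were Gata6, Ankrd1, Mef2a, Tbx3, Tbx18, Myocd, Irx3, Hand1, Nkx2-5, Tbx5 and Prox1. For 7 of those 11 another coding gene lay nearer to their strongest member, as at Nkx2-5, where the only member was 24698 bp from Kifc5b and 47405 bp from Nkx2-5.

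Among metabolic regulators, Klf6 had the strongest member, 16.4-fold in list 1 and 12.3-fold in list 2 at 57662 bp. Klf15, a glucocorticoid-induced regulator of lipid and amino acid use in heart, had 4 members on its 2 sides, the strongest at 8.34 and 15.6-fold 27131 bp away on 24 and 70 reads. Ppargc1a, the coactivator of mitochondrial biogenesis, had 4 between 16279 and 21143 bp away at 3.75 to 5.97-fold in list 1 and 3.90 to 6.10-fold in list 2. Ppara was described above.

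Sarcomere genes were led by Tpm1, alpha tropomyosin, whose member had 12.9 and 10.1-fold but lay 142251 bp away and nearer to Tln2, at 25162 bp. Myom2, an M-band protein gene, was 18865 bp from a member at 10.7 and 9.83-fold, and Pdlim5, a Z-disc gene, 46507 bp from one at 8.65 and 6.38-fold. Actc1, cardiac actin, flanked 3 and Ttn, titin, 1. In the calcium list 4 of 17 genes (23.5%) flanked a member, with 6.29 members per Mb and 3.90 without the single gap with the most. Atp2a2, the calcium pump of the sarcoplasmic reticulum, flanked 4, and the one at 22427 bp, which was nearer to Ift81, had 6.62 and 8.02-fold on 138 and 141 reads. Ryr2, the calcium release channel, flanked 4 at 2.5 to 4.80-fold in list 1 and 2.26 to 4.88-fold in list 2, the nearest 18235 bp away, and Slc8a1 had 1 at 4.67 and 3.01-fold. Ion channel genes flanked a member in 5 of 19 (26.3%), with 3.27 members per Mb and 1.96 without such a gap, Ank2 and Kcnh2 among them.

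Stress and circadian genes were led by Fos, an immediate early gene, with a member at 7.18 and 11.0-fold 37126 bp away, Nfil3 at 6.43 and 7.98-fold, with Ror2 nearer, and Cebpb at 6.52 and 7.29-fold. Hypertrophy and growth genes flanked a member in 11 of 32 (34.4%), led by Vegfa, Nppb and Irs2. Their gaps held 8.10 members per Mb, and 6.49 without the single gap with the most. Nppb, which encodes the B-type natriuretic peptide, was 19859 bp from a member at 13.7 and 7.25-fold, and 2510039O18Rik was nearer at 18611 bp. Irs2, an insulin receptor substrate, flanked 9 members, the strongest of them 330985 bp away with Myo16 nearer at 18954 bp. Of the 9, 7 lay in the gap toward Col4a1, a gene that was itself the nearest one for 6 members. The TGF-beta, BMP, WNT and NOTCH list had 9 of 43 (20.9%) and 2.37 members per Mb, 1.74 without the gap with the most. It was led by the gap of Smad3 and Smad6 (8.15 and 12.7-fold) and by Smad7 (11.4 and 6.68-fold). Dym lay nearer than Smad7 to that last peak, 38626 against 41773 bp.

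Fuel genes were counted by pathway. Fatty acid genes flanked a member in 5 of 14 (35.7%, 12.8 to 64.9%), with 9.91 members per Mb, and 2 of the 5 were the nearest gene of a member. The strongest peaks were those of Cpt2 (14.4 and 9.77-fold), Pdk4 (10.5 and 6.90-fold) and Vldlr (8.46 and 6.46-fold). Slc1a7 lay nearer than Cpt2 to its peak, 20288 against 24529 bp, and the Vldlr peak was 229116 bp away with Gm815 nearer. Cpt2 is a mitochondrial carnitine transferase, and Pdk4, a kinase that turns off pyruvate dehydrogenase, was 13665 bp from its peak. Glycolysis genes flanked a member in 3 of 10, namely Hk2, Ugp2 and Pgm1, with 7.21 members per Mb and 4.86 without such a gap. The Hk2 peak had 15.5 and 14.5-fold, 89208 bp away with Sema4f nearer. Respiratory chain and TCA cycle genes flanked one in 2 of 17 (11.8%, 1.46 to 36.4%), Sucla2 and Idh2, although 36 of the 37 were marked at their ends. Their gaps held 7.78 members per Mb, and 1.17 without the single gap with the most members. The intervals of these lists overlap and their differences were not tested.

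Lists of other cell types and tissues had from 0 to 23.5% of their genes beside a member, against 13.3% of all such genes. Fibroblast and matrix genes flanked a member in 3 of 26 (11.5%; Fbln1, Col6a3 and Eln), neuronal genes in 2 of 17 (11.8%; Neurod1 and Grin2b), hepatic genes in 2 of 13 (15.4%; Fgg and Pck1) and endothelial genes in 4 of 17 (23.5%), Cd34, Ets1 and Cldn5 first, although Ets1 was 1691064 bp from its peak. Their gaps held 2.42, 0.971, 2.37 and 2.95 members per Mb, and 1.23, 0.522, 1.24 and 1.80 without the single gap with the most. Mural genes had 1 of 9, Smtn, with 3.01 per Mb from that member alone. Immune genes had 0 of 13, which allows a share of up to 23.1%. Olfactory receptor genes had 3 of 743 (0.404%), namely Olfr1368, Olfr49 and Olfr1423, and vomeronasal receptor genes 1 of 337, Vmn2r87, with 0.591 members per Mb and, the Vmn2r87 member having no coding gene on its other side, 0 per Mb (interval up to 0.326). Both Olfr1368 members and 2 of the 3 Olfr1423 members stood within 1000 bp of transfer RNA genes. Zfp genes had 24 of 220 (10.9%) and 2.63 per Mb, Zfp536, Zfp521 and Zfp462 first, and Hox genes 0 of 8, which allows up to 37.5%.

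Of the other lists, the muscle ubiquitin ligases and autophagy genes had 3 of 15 (Fbxo32, Trim55 and Trim63), with 11.0 members per Mb, 4.24 without the gap with the most. The strongest member beside Fbxo32, the atrogin-1 gene, had 10.6 and 8.36-fold and lay 58308 bp away, with Klhl38 nearer at 41373 bp. Cell cycle genes had 3 of 18 (Mki67, Wee1 and Cdkn1a) and coactivator and chromatin genes 4 of 15, Chd7, Med13 and Ep300 first, with 2.87 and 8.83 members per Mb, and 1.5 and 4.11 without the gap with the most. The strongest members beside Chd7, Med13 and Ep300 lay 215070, 114521 and 62849 bp away, with Clvs1, Rnft1 and Rbx1 nearer. Carm1 and its relatives Prmt1, Prmt2, Prmt3, Prmt5, Prmt6, Prmt7, Prmt8 and Prmt9 flanked no member, and only 5 of these 9 stood beside a gap that could hold one. The sole gene of the arginine methylation list to flank a member, of 8, was Btg1, a Prmt1 partner, at 9.58 and 14.1-fold, 86132 bp away, which gave 0.992 per Mb.

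**Figure D5:**
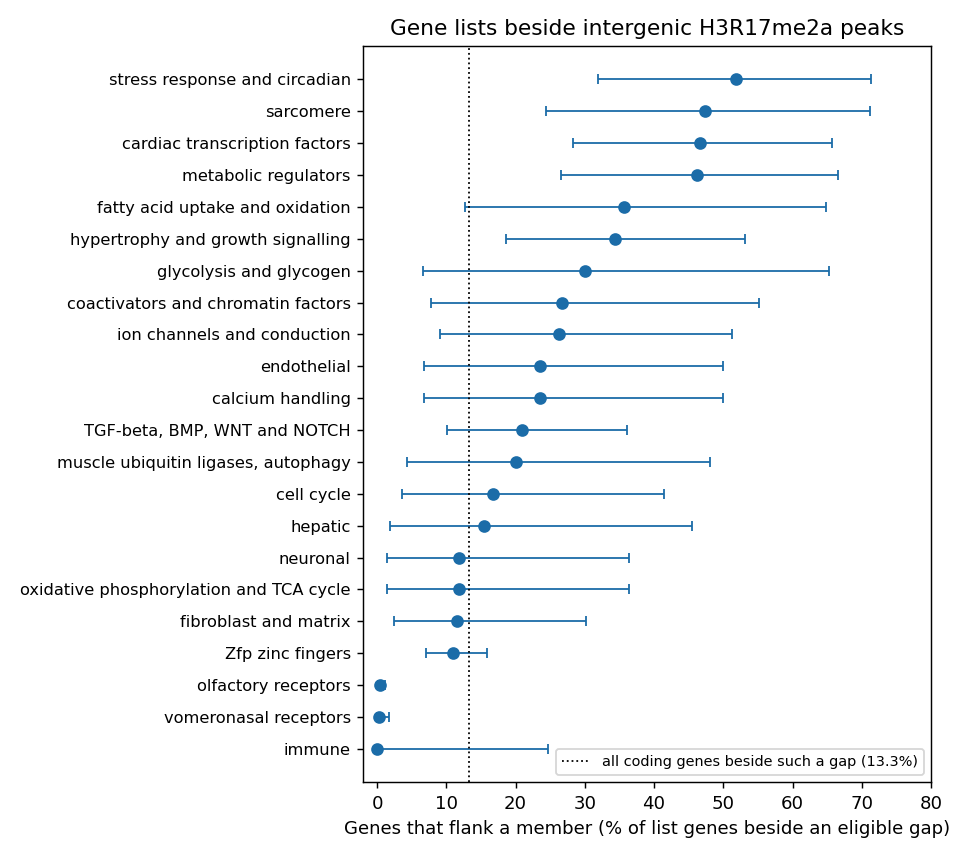
Share of the genes of each list that flank a member, as a percentage of the list genes beside a gap that could hold one (x axis), with 95% exact intervals, for the lists with at least 10 such genes. The dotted line is the 13.3% of all coding genes beside such a gap, and the stress, sarcomere, cardiac factor and metabolic regulator lists lie at 46.2 to 51.9%.

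Members were also placed against the direction of the nearest gene. For 1060 members the strand of the nearest coding gene was known, and 557 (52.5%, 49.5 to 55.6%) lay on the side of its start. Eligible DNA with a known strand was nearest to a start over 53.8% of its length. The nearest non-coding gene was a median of 14153 bp away. It was within 1000 bp for 158 members (11.2%), of which 104 were long non-coding RNAs, 21 transfer RNAs and 16 ribosomal RNAs. The 21 beside transfer RNA genes had a median fold of 6.25 in list 1 (2.56 to 16.9) and 4.98 in list 2 (2.70 to 12.3), close to the medians of all members.

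The peaks nearest to each limit of the rule are given as a description. Just over 10000 bp lay members 10001 bp from Fosb (5.0 and 6.87-fold), 10015 bp from Max (4.33 and 3.50) and 10022 bp from Gm6569 (11.0 and 8.53). Just under it lay peaks 9983 bp from Gpr12 (5.47 and 7.30), 9973 bp from Bnip3 (7.57 and 7.82) and 9972 bp from Traf3ip3 (8.96 and 6.83). Inside the 100000 bp limit were Rgma at 99809 bp (9.83 and 5.51), Magi3 at 98806 bp (6.37 and 4.11) and Gm815 at 98717 bp (8.46 and 6.46). Outside it were Magi3 again at 100011 bp (6.67 and 4.11) and Bod1 at 100692 bp (3.87 and 2.26). The widest members, 1996, 1990 and 1957 bp, lay between Tbc1d21 and Insyn1 (12.9 and 9.60), Atp2a2 and Ift81 (3.24 and 1.77) and Actn2 and Heatr1 (3.66 and 4.63). The 17 peaks at these distances that were too wide began at 2049, 2075 and 2082 bp, beside Gm46617 (4.14 and 6.31), Ptpn1 (7.0 and 7.50) and Rfx7 (4.33 and 3.76).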

How the data were processed

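H3R17me2a chromatin of wild-type P21 mouse heart was measured by ChIP-seq in 2 samples, each with 1 deposited peak list. Per the labels' protocols, homogenized frozen hearts were sonicated and precipitated with an antibody to H3R17me2. The submitters' processing notes name FastQC, Bowtie2 and the build mm10. For the peak caller, control and settings, nothing was given in the sources used here. Each deposited list held a score, a fold enrichment at the summit, and −log10 p and −log10 q values, as the authors' caller gave them. They describe peaks within a list, and list 1 had no −log10 p below 5.00 whereas list 2 went down to 2.01.

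ChIP reads and local background at each summit were recovered from the fold and the Poisson p-value, and matched 99.9% of peaks in each list. Reads were scaled by a factor found from the fold and p-values themselves, 1 in list 1 and 0.618 in list 2. All list 2 read counts rest on that fitted factor. Genes came from RefSeq GRCm38.p6. A gap is the DNA between neighbouring coding genes, and eligible DNA is what lay outside all genes at 10000 to 100000 bp. A gene was called marked where a peak of each list overlapped the 1000 bp on either side of an end. Intervals are exact binomial for shares and densities and order-statistic for medians, at 95%, and cover counting error only. Those over members treat each member as independent, although many shared a gap. Total depth is unknown, and no p-value was computed, since the lists were counted as 1 sample. Python 3.11.15, pandas 2.3.3, NumPy 2.4.6, SciPy 1.17.1 and matplotlib 3.10.9 were used, and the geometry was tested on simulated data.

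The members and the gene lists were chosen with earlier results of these data known. Named were the 15 members with the lowest summed rank of fold, the 5 gaps with the most members, the 3 peaks on each side of each limit, the 10 genes nearest to the most members, up to 3 genes a list, and Carm1 with the Prmt genes. The other genes named, and the further members given for Tead1, Adrb1, Ppargc1a, Klf15, Atp2a2, Ryr2 and Vegfa, were chosen after their values were seen. A few of the items this rule names are not reported here. In all, 14 alternatives were tried.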

Additional observations from a re-analysis of the deposited data

Results flagged for a closer look

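List 2 held 2094 peaks in the DNA at 10 to 100 kb from coding genes that overlapped no list 1 peak and so are no members, and were used only where list 2 was taken alone. They were 61.7% of the 3395 narrow list 2 peaks there. Their median fold was 3.22, against 4.89 for the list 2 values of the members, and 533 of them (25.5%) had a −log10 p of at least 5, the lower end of list 1. No control sample was analysed here, so their level over a control was not tested.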

How the results depend on the processing

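No paired analysis was possible because both samples belong to 1 group and no comparison between groups was made. Of the 14 alternatives, 2 were chosen after seeing the data (leaving out peaks beside transfer or ribosomal RNA genes, and counting 1 member for each list 2 peak), and with them there were 1369 and 1352 members, of which 62.9% and 62.2% had the nearest gene marked. When peaks of either list needed a −log10 p of 5 or more, median fold was 6.47 and 5.64, the nearest gene was marked for 52.9% and both flanks for 25.1%, 6.44% of coding genes flanked a member, density was 2.48 per Mb and 44.6% of members were alone in their gap. At a −log10 q of at least 2 these values were 6.46, 5.45, 55%, 27.5%, 6.64%, 2.61 and 43.1%. With the upper 50% of each list by fold there were 873 members, 9.66% of shared peaks, and the same values were 7.19, 5.73, 18%, 1.83%, 5.63%, 1.99 and 50.4%. A reciprocal overlap of 50% gave a list 1 median of 6.0, 6.35% of coding genes, 2.45 per Mb and 44.3% alone. With list 2 peaks as the base, density was 2.97 per Mb and 41.0% were alone. With distance measured to any annotated gene, members were 5.46% of shared peaks, median fold was 6.0 and 5.14, both flanks were marked for 30.5%, 5.96% of coding genes flanked a member and density was 1.71 per Mb. With a least distance of 20000 bp there were 934 members (4.62%), 5.14% of coding genes and 2.86 per Mb. With a gene-end window of 3000 bp the nearest gene was marked for 67.2% and both flanks for 40.2%. Taking each list alone in turn (leaving out the other replicate) gave 1453 to 3395 members, 6.97 to 9.29% of narrow peaks, median fold of 5.87 in list 1 and 3.59 in list 2, 62.8 to 64.1% with the nearest gene marked, 35.0 to 39.3% with both marked, 7.62 to 15.3% of coding genes, 3.32 to 7.75 per Mb and 30.7 to 36.4% alone, with the larger count in list 2. The share of all coding genes marked at an end moved with the setting too. It was 40.1% in the main setting, 34.2% at a −log10 p of at least 5 and 35.3% at a −log10 q of at least 2. With the upper 50% by fold it was 12.6%, and with the 3000 bp window 44.5%. List 1 alone gave 40.6% and list 2 alone 47.7%. The cause of these shifts was not tested. Recovered reads are few at most members, with a median of 20, so single fold values are coarse.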

Other observations

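Some further gaps held many members. The gap between Tarbp1 and Irf2bp2 on chromosome 8 held 8 in 113197 bp, at 3.67 to 8.67-fold in list 1 and 2.43 to 9.16-fold in list 2, and both genes were marked at an end. Between Irs2 and Col4a1, a basement membrane collagen gene, 7 members had 3.98 to 10.9-fold in list 1 and 4.26 to 8.11-fold in list 2. Between Mef2a, a muscle transcription factor gene, and Lrrc28, 7 had 4.67 to 7.67-fold and 3.01 to 5.14-fold.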
